A study of Mus musculus with 6 samples.

Results

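The 37 genes described here encode clotting factors, inhibitors of clotting, proteins that control the dissolving of clots, and complement proteins that the liver makes for the plasma. They were chosen by name, and their probes were found through the RefSeq accession that each array feature carries. All 37 were on the array, with 47 probes among 55681, and they are set beside the 12297 named genes that had a probe bright enough to test. Liver RNA of male Gα12 KO mice (3 livers) and WT mice (3 livers) was hybridised to 1-colour Agilent arrays, 1 liver on each. Both groups were 8 weeks old, of C57BL/6 and 129/Sv strain (95% C57BL/6), on a chow diet and killed after an overnight fast. The KO mice lack Gα12, a G protein α subunit encoded by Gna12, and the labels give neither the deleted part nor a restriction to a cell type. A level is the log2 of a probe's signal after subtraction of its array's 75th percentile, and differences are Gα12 KO minus WT on that scale.

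Clotting proceeds as a cascade in which 1 protease activates the next until thrombin turns fibrinogen into fibrin. Complement is a parallel cascade of plasma proteins that tags microbes and ends in a pore in their membrane. Hepatocytes secrete most proteins of both, and many of these genes are under the control of liver transcription factors such as HNF4 and C/EBP.

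Gna12 had log2 levels of -4.91, -4.62 and -3.47 in the Gα12 KO livers and of -3.48, -4.55 and -0.89 in the WT livers. Its only probe was well above background on WT replicate 3 alone, so it was a weak check of the labels. Between 20953 and 22585 probes were well above background on the Gα12 KO arrays and between 22951 and 28752 on the WT arrays. The arrays were not alike within WT. WT replicates 1 and 2 correlated with the Gα12 KO arrays at 0.869 to 0.930 over the tested probes, and WT replicate 3 at 0.966 to 0.982. The 75th percentile of log2 signal was 7.80, 8.30 and 9.09 on the WT arrays and 8.24, 8.20 and 8.63 on the Gα12 KO arrays. The Gα12 KO arrays lay on row 2 of the slide and the WT arrays on row 1, so that row and genotype cannot be told apart. Features marked as non-uniform also split by group, with 145, 158 and 98 on the Gα12 KO arrays and 2, 4 and 6 on the WT arrays. Because WT replicates 1 and 2 stood apart, differences are given with all arrays and, for most of the genes described, also from WT replicate 3 alone.

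All 47 probes were well above background on all 6 arrays. Most of the 37 genes had lower levels in the Gα12 KO livers. In whole liver, fewer cells of a type and less RNA per cell cannot be told apart. The difference was below 0 for 33 genes (89.2%, against 72.3% of all 12297 genes), and the median was -0.48 (-0.49 over all genes). Differences ran from -1.34 for F13b to 1.83 for Fga. No gene passed limma's test at an adjusted p below 0.05 (0 of 37, background 0% of genes), and the lowest adjusted p was 0.235. At an unadjusted p below 0.05, 3 genes were lower (F13b, Mbl2 and C4bp; 8.11%, background 16.6%) and 2 were higher (C6 and Fga; 5.41%, background 3.98%). The 2 groups did not overlap for 8 genes with lower levels (21.6%, background 21.1%) and for 2 with higher levels (5.41%, background 4.42%). These shares of members were near those of the array or below them, apart from the count of differences below 0. That count depended on the scaling. After quantile normalization 10 of the 33 turned positive, and over all genes the number below 0 went from 8888 to 7756 of 12297. Set against the median of all genes, 15 of the 37 lay below it.

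The Gα12 KO livers were close to each other, with a median SD of 0.15 over the 37 genes, whereas the median SD in WT was 0.62. WT replicate 1 lay above all Gα12 KO livers for 33 of the genes (89.2%, against 66.4% of all genes) and WT replicate 2 for 31 (83.8%, against 66.3%), while both lay below them for Fga, F7, C6 and C9. WT replicate 3 lay above the Gα12 KO livers for 10 genes (27.0%, against 32.6% of all genes), within their range for 10 (27.0%, against 40.6%) and below them for 17 (45.9%, against 26.8%). Measured against WT replicate 3 alone, the median difference was 0.12, 16 of 37 differences were below 0 (43.2%, background 53.3%), and 16 genes kept their sign. That fit has 1 WT liver, so its p-values take their spread from the Gα12 KO livers alone, and none is given for single genes. Without WT replicate 3 instead, 23 genes were lower at an adjusted p below 0.05 (62.2%, background 50.6%) and 4 were higher (10.8%, background 11.5%). What sets WT replicates 1 and 2 apart was not tested.

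**Figure D1:**
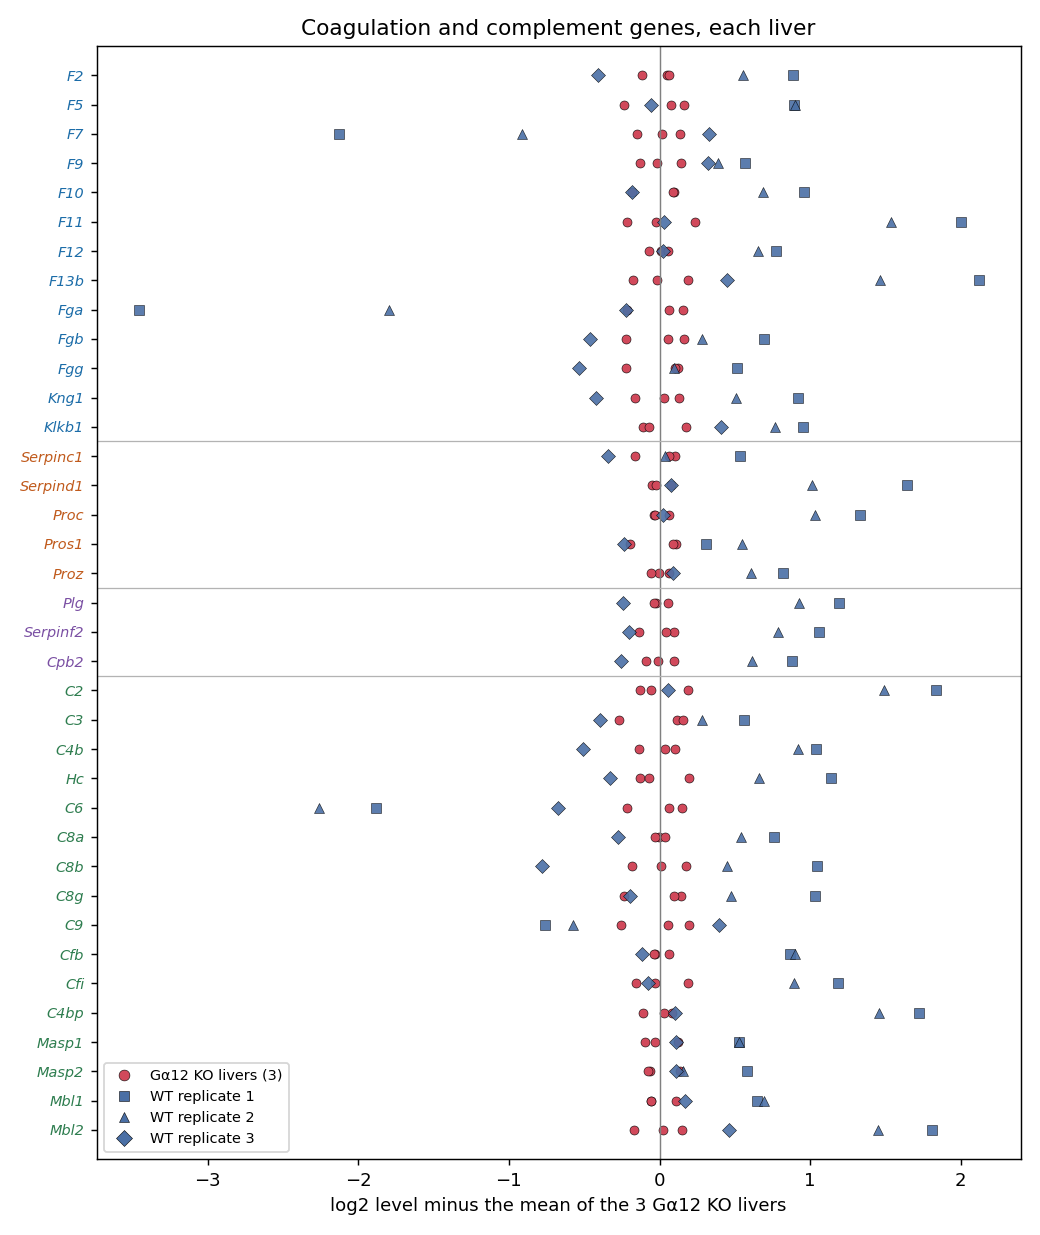
Log2 level of each of the 37 genes in each liver, minus the mean of the 3 Gα12 KO livers; gene names are coloured by clotting factors, anticoagulants, fibrinolysis and complement from top to bottom. WT replicates 1 and 2 (squares and triangles) lie to the right of the Gα12 KO livers (circles) for most genes and to the left for F7, Fga, C6 and C9, whereas WT replicate 3 (diamonds) lies between -0.78 and 0.46 of their mean.

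Among the 13 clotting factors the median difference was -0.43, with 11 below 0. The contact factors, which start clotting on a charged surface, all had negative differences. F11, the factor XI gene, had levels of 4.86, 5.06 and 5.32 in Gα12 KO livers, against 7.08, 6.62 and 5.11 in WT livers. The groups overlapped, because WT replicate 3 lay among the Gα12 KO livers, and the difference of -1.19 (SE 0.52, limma adjusted p = 0.239) became -0.03 against that liver alone. Klkb1, which encodes plasma prekallikrein, the activator of factor XII, stood at 6.24, 6.28 and 6.53 in Gα12 KO livers and at 7.30, 7.12 and 6.76 in WT livers. Every WT liver was above every Gα12 KO liver, and the difference was -0.71 (SE 0.31, adjusted p = 0.239), or -0.41 against WT replicate 3. After quantile normalization it was -0.18. F12 and Kng1, for factor XII and kininogen, differed by -0.48 and -0.33, and by -0.02 and 0.42 from WT replicate 3 alone.

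Of the factors that need vitamin K, F9, the gene mutated in haemophilia B, had 3.95, 3.84 and 4.11 in Gα12 KO livers, against 4.54, 4.36 and 4.29 in WT livers. This was the tightest WT group of the 37 genes (SD 0.13), and the groups did not overlap. The difference of -0.43 (SE 0.30, adjusted p = 0.343) was -0.32 against WT replicate 3, but 0.05 after quantile normalization. F7, the factor VII gene, whose product starts clotting together with tissue factor, had 4.11, 3.94 and 4.23 in Gα12 KO livers, against 1.97, 3.18 and 4.43 in WT livers. WT replicates 1 and 2 were low and WT replicate 3 was above the Gα12 KO livers, so the difference was 0.90 (SE 0.59, adjusted p = 0.321) with all arrays and -0.33 against WT replicate 3. A second F7 probe gave 0.82. For F5, a cofactor gene, the levels were 4.81, 5.21 and 5.12 in Gα12 KO livers and 5.94, 5.94 and 4.99 in WT livers. Again only WT replicates 1 and 2 stood apart, at a difference of -0.58 (SE 0.38, adjusted p = 0.321), which was 0.06 against WT replicate 3. A dimmer F5 probe ran the other way, with a difference of 0.82 (SE 0.48), so no direction can be given for F5. F2, for prothrombin, and F10 differed by -0.34 and -0.49, and by 0.41 and 0.18 from WT replicate 3 alone.

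F13b, which encodes the carrier subunit of the enzyme that crosslinks fibrin, had the lowest difference of all 37 genes. Its levels were 4.86, 4.71 and 5.07 in Gα12 KO livers, against 7.0, 6.34 and 5.33 in WT livers. The groups did not overlap, and the difference was -1.34 (SE 0.46, 95% interval -2.41 to -0.28, adjusted p = 0.235), or -0.45 against WT replicate 3. The 3 fibrinogen chains are secreted as 1 molecule. Fgb and Fgg, for the β and γ chains, differed by -0.17 (SE 0.38) and -0.03 (SE 0.37), and for both WT replicate 3 lay below all Gα12 KO livers (differences from it of 0.46 and 0.53). Fga, for the α chain, had 7.99, 7.90 and 7.62 in Gα12 KO livers, against 4.38, 6.04 and 7.61 in WT livers with its brighter probe, a difference of 1.83 (SE 0.74, adjusted p = 0.235). The highest WT liver and the lowest Gα12 KO liver were almost level, and against WT replicate 3 the difference was 0.22. The other Fga probe ran the other way, with 5.55, 4.32 and 4.39 in Gα12 KO livers and 5.96, 5.82 and 5.08 in WT livers (difference -0.87, SE 0.45), so no direction can be given for this gene.

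The inhibitors of clotting had negative differences in 5 of 5 genes, with a median of -0.51. Serpind1 encodes heparin cofactor II, an inhibitor of thrombin. It had 7.68, 7.70 and 7.81 in Gα12 KO livers, against 9.37, 8.74 and 7.81 in WT livers, a difference of -0.91 (SE 0.44, adjusted p = 0.244). WT replicate 3 and the highest Gα12 KO liver were equal to 2 decimals, so the groups barely separated, and the difference from that WT liver was -0.08. Proc, for protein C, which inactivates factors V and VIII, had 8.16, 8.26 and 8.17 in Gα12 KO livers and 9.53, 9.23 and 8.22 in WT livers. Here WT replicate 3 fell among the Gα12 KO livers, and the difference of -0.80 (SE 0.40, adjusted p = 0.253) was -0.02 against it. Proz, for protein Z, the cofactor of a factor X inhibitor, had 3.45, 3.41 and 3.52 in Gα12 KO livers and 4.28, 4.07 and 3.55 in WT livers. The groups were separate, with a difference of -0.51 (SE 0.33, adjusted p = 0.317) that was -0.09 against WT replicate 3 and -0.04 after quantile normalization. Pros1, for the protein C cofactor protein S, had 2.73, 2.43 and 2.72 in Gα12 KO livers and 2.93, 3.17 and 2.39 in WT livers, and Serpinc1, for antithrombin, differed by -0.08 (SE 0.34). For both, WT replicate 3 was below all Gα12 KO livers, with differences from it of 0.24 for Pros1 and 0.34 for Serpinc1. The Pros1 difference was -0.21 (SE 0.34, adjusted p = 0.673).

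Of the 3 genes of clot dissolution, Plg encodes plasminogen, the precursor of the protease that cuts fibrin. It had 8.09, 8.02 and 8.0 in Gα12 KO livers, against 9.23, 8.97 and 7.80 in WT livers. Serpinf2, for the plasmin inhibitor α2-antiplasmin, had 8.58, 8.53 and 8.35 in Gα12 KO livers and 9.55, 9.28 and 8.28 in WT livers. Cpb2, whose carboxypeptidase slows fibrin breakdown, had 8.19, 8.10 and 8.29 in Gα12 KO livers and 9.07, 8.81 and 7.94 in WT livers. In all 3 genes WT replicates 1 and 2 were above and WT replicate 3 below every Gα12 KO liver. The differences were -0.63 (SE 0.43) for Plg, -0.55 (SE 0.40) for Serpinf2 and -0.41 (SE 0.38) for Cpb2, with limma adjusted p-values of 0.336, 0.364 and 0.457. Against WT replicate 3 alone they were 0.24, 0.20 and 0.25.

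**Figure D2:**
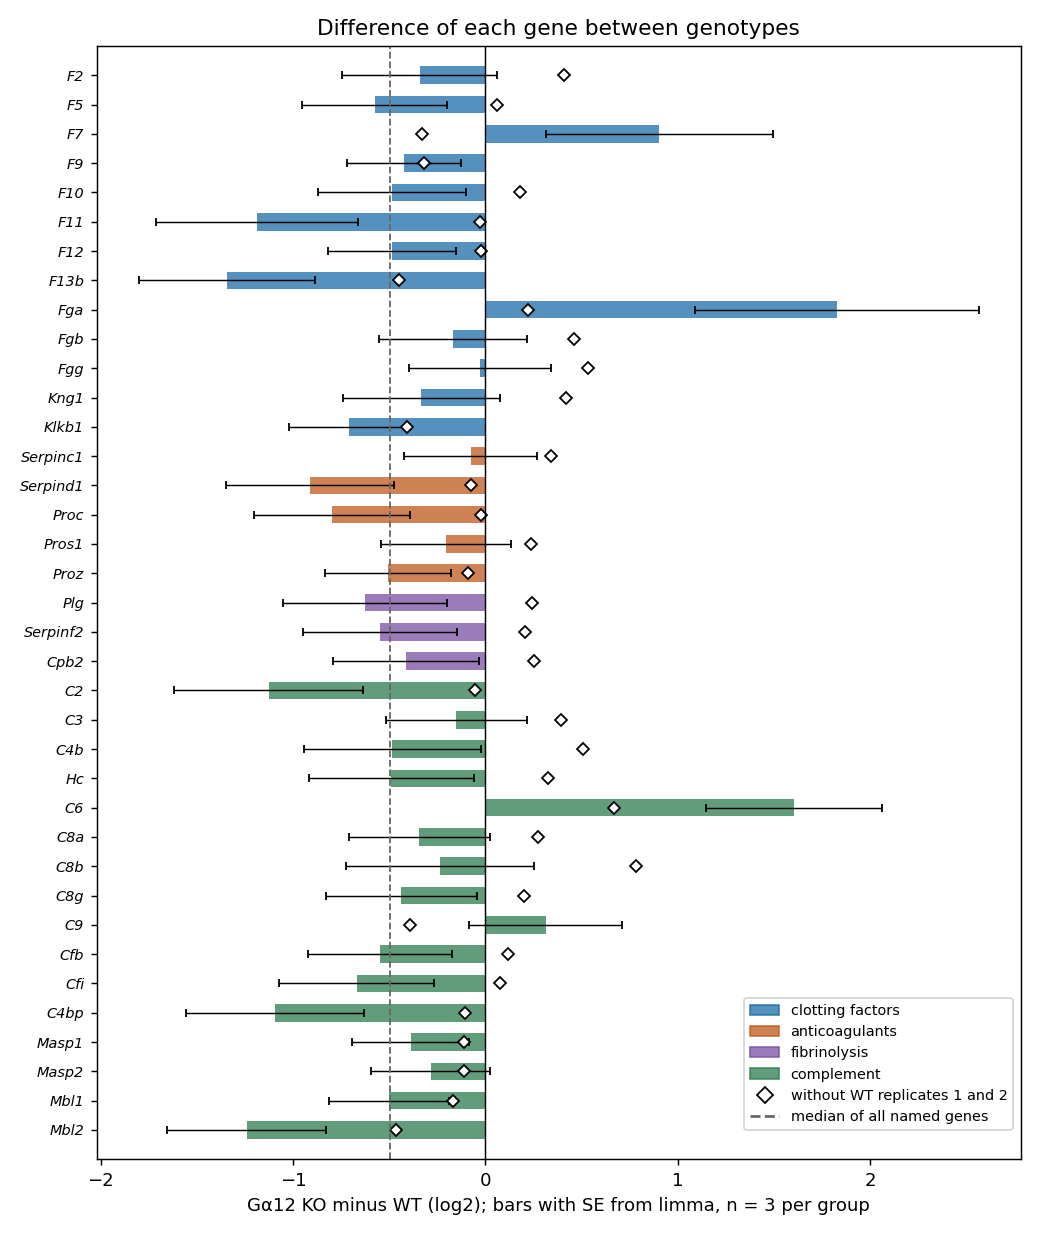
Difference between Gα12 KO and WT livers (log2) for each gene, as bars with the standard error from limma (n = 3 per group), beside the difference from WT replicate 3 alone (open diamonds) and the median of all named genes (dashed line at -0.49). For 27 of 37 genes the diamond lies closer to 0 than the bar, and C6 keeps the largest positive value among genes whose bar is also positive.

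The 16 complement genes had a median difference of -0.46, and 14 were below 0. Those of the lectin pathway bind sugars on microbes and cut C4 and C2. Mbl2, for mannose-binding lectin C, had 8.15, 7.96 and 8.28 in Gα12 KO livers, against 9.94, 9.58 and 8.59 in WT livers. All WT livers were above all Gα12 KO livers, and the difference was -1.24 (SE 0.41, 95% interval -2.20 to -0.28, adjusted p = 0.235), or -0.46 against WT replicate 3. Mbl1, for mannose-binding lectin A, had 5.0, 4.83 and 4.83 in Gα12 KO livers and 5.53, 5.58 and 5.06 in WT livers. The groups were again separate, with a difference of -0.50 (SE 0.31, adjusted p = 0.307) that was -0.17 against WT replicate 3. After quantile normalization it was -0.02. C2, for the protease of the C3 convertase, had 6.22, 6.29 and 6.54 in Gα12 KO livers and 8.18, 7.84 and 6.40 in WT livers. Only WT replicates 1 and 2 stood apart, so that the difference of -1.13 (SE 0.49, adjusted p = 0.238) was -0.06 against WT replicate 3. C4b differed by -0.48 (SE 0.46), and the lectin pathway proteases Masp1 and Masp2 by -0.39 and -0.28. From WT replicate 3 alone these differences were 0.51, -0.11 and -0.11.

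C3, the protein at which all complement routes meet, and Cfb, for factor B of the alternative pathway, differed by -0.15 (SE 0.36) and -0.55 (SE 0.38), and by 0.39 and 0.12 from WT replicate 3 alone. Among the regulators, C4bp, for the C4b-binding protein, had 7.65, 7.46 and 7.60 in Gα12 KO livers, against 9.30, 9.03 and 7.68 in WT livers. The groups did not overlap, and the difference of -1.10 (SE 0.46, 95% interval -2.17 to -0.02, adjusted p = 0.237) was -0.11 against WT replicate 3. Cfi, for factor I, the protease that cuts C3b and C4b, had 8.09, 7.96 and 8.31 in Gα12 KO livers and 9.31, 9.01 and 8.05 in WT livers. Here WT replicate 3 lay among the Gα12 KO livers, and the difference of -0.67 (SE 0.40, adjusted p = 0.297) was 0.07 against it.

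The terminal genes, which build the membrane pore, included the member with the lowest unadjusted p (0.00849). C6, whose protein joins C5b in the growing pore, had 4.50, 4.86 and 4.78 in Gα12 KO livers, against 2.83, 2.45 and 4.04 in WT livers. Every Gα12 KO liver was above every WT liver, and the difference was 1.60 (SE 0.46, 95% interval 0.54 to 2.67), with an adjusted p of 0.235. With 1 array left out in turn it ran from 1.28 to 2.07, and against WT replicate 3 alone it was 0.67. C6 was lower on WT replicates 1 and 2, on which most other members were higher. C9, for the protein that forms the pore wall, had 3.94, 3.63 and 4.08 in Gα12 KO livers and 3.12, 3.31 and 4.28 in WT livers. It had low values on the same 2 WT arrays but a high one on WT replicate 3, so its difference of 0.31 (SE 0.40, adjusted p = 0.584) was -0.39 against that liver. C8b, for a chain of C8, had 6.75, 6.94 and 7.11 in Gα12 KO livers and 7.98, 7.38 and 6.15 in WT livers. WT replicate 3 was the lowest of all 6 livers, and the difference was -0.24 (SE 0.49) with all arrays and 0.78 against WT replicate 3. Hc, which encodes C5, C8a and C8g differed by -0.49, -0.34 and -0.44, and by 0.33, 0.27 and 0.20 from WT replicate 3 alone.

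Set side by side, clotting factors, anticoagulants, fibrinolysis genes and complement genes had medians of -0.43, -0.51, -0.55 and -0.46, all within 0.07 of the median of all genes. Below the median of all genes lay 4 of 13 clotting factors, 3 of 5 anticoagulants, 2 of 3 fibrinolysis genes and 6 of 16 complement genes. In WT replicates 1, 2 and 3 the median distance from the Gα12 KO mean was 0.88, 0.55 and -0.06 for clotting factors and 0.82, 0.61 and 0.02 for anticoagulants. For fibrinolysis genes it was 1.06, 0.79 and -0.24, for complement genes 0.95, 0.60 and -0.10, and over all genes 0.82, 0.71 and 0.03. After quantile normalization the medians of the 4 lists were -0.00252, -0.04, -0.12 and -0.05, and that of all genes was -0.21.

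**Figure D3:**
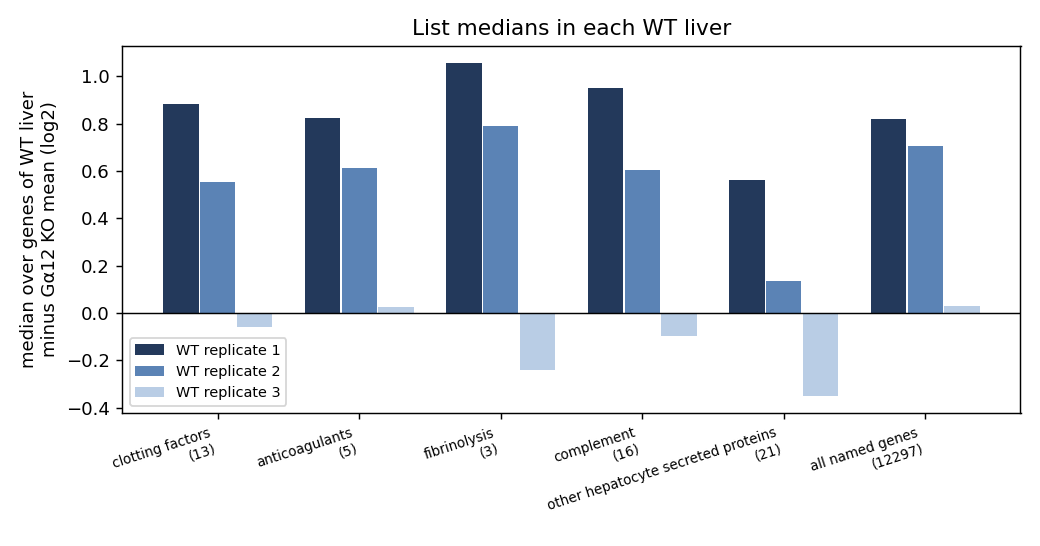
Median over the genes of each list of the level in a WT liver minus the mean of the Gα12 KO livers (log2), with the number of genes in brackets. WT replicates 1 and 2 lie above 0 in all 4 member lists and over all named genes, while WT replicate 3 lies between -0.24 and 0.03 in them and at -0.35 for the list of other hepatocyte products.

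For 9 of the 37 genes the array held several probes, and in 5 of them 2 probes of the gene had differences of opposite sign. Besides Fga these were F5, C8a, C8g and Masp2. The dimmer C8a probe had 3.64, 3.66 and 3.77 in Gα12 KO livers, against 1.91, 2.39 and 3.40 in WT livers (difference 1.12, SE 0.43), where the brighter one was lower in the Gα12 KO livers. The dimmer C8g probe had 5.44, 5.44 and 5.43 in Gα12 KO livers and 2.86, 3.77 and 5.60 in WT livers (difference 1.36, SE 0.65). In both genes the disagreement lay on WT replicates 1 and 2. The gap between brighter and dimmer C8g probes was 3.87, 3.82 and 3.49 in Gα12 KO livers and 7.33, 5.88 and 3.37 in WT livers. For F5 it was 0.93, 1.90 and 1.72 in Gα12 KO livers and 4.06, 3.31 and 1.36 in WT livers. A Masp2 probe for another transcript had a gap to the brightest of 5.42, 6.08 and 5.57 in Gα12 KO livers and 9.92, 8.05 and 5.19 in WT livers. F10 had probes of the same sign, of which the dimmer differed by -1.72 (SE 0.69). Both probes of F7, C3 and Kng1 had the same sign. Because C6, F13b, Mbl2 and C4bp had 1 probe each, no second probe bears on them.

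**Figure D4:**
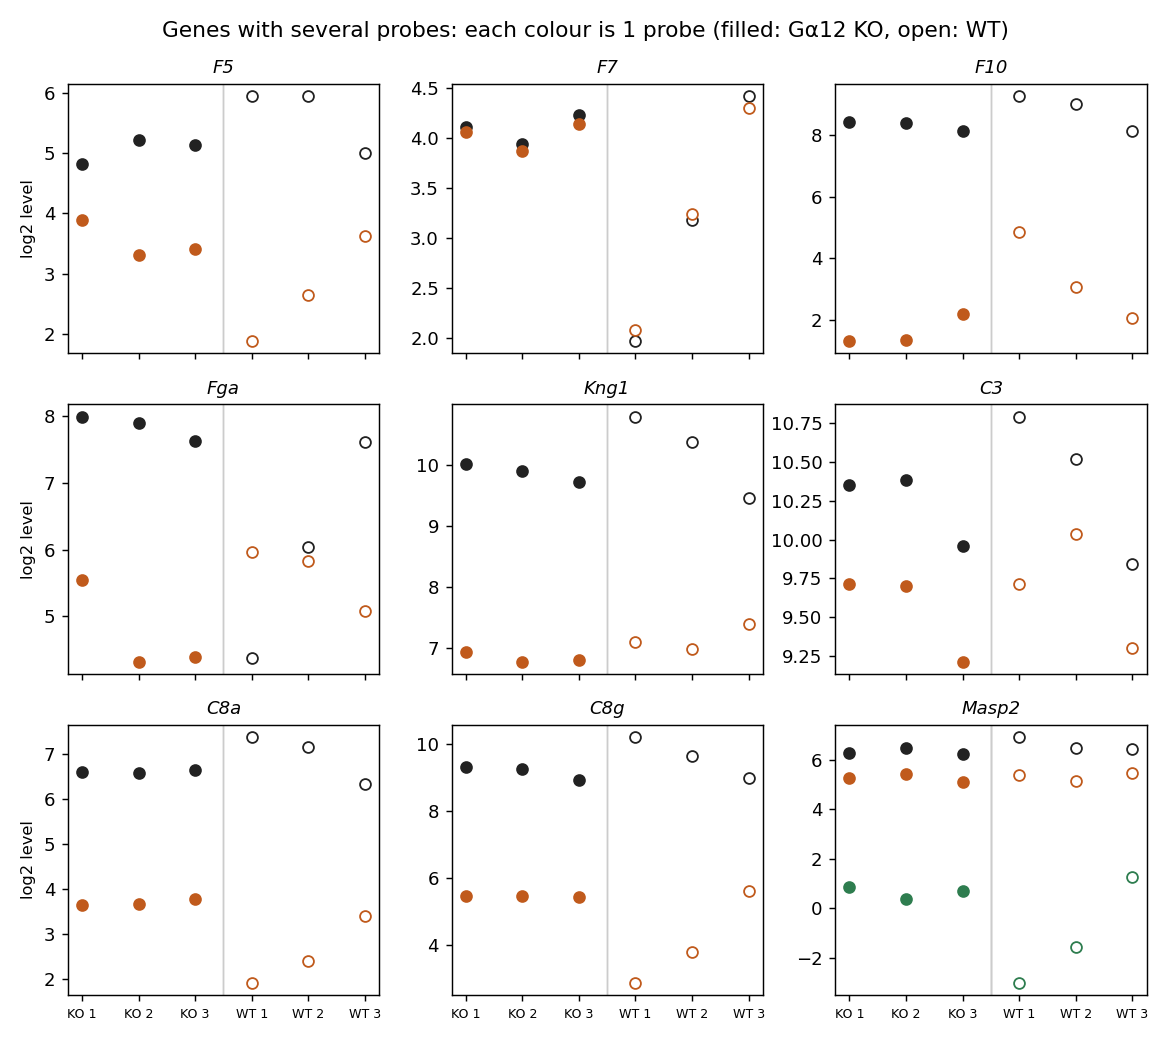
Log2 level of each probe in each liver for the 9 genes with several probes (filled circles: Gα12 KO, open circles: WT; black: the brightest probe of the gene). The probes keep a near constant distance in the Gα12 KO livers and in WT replicate 3 for C8a and C8g, and lie further apart in WT replicates 1 and 2.

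Promoters are shown for 4 genes whose 120 bases before the start hold letters of the C/EBP motif, the coagulation genes F9, F11 and Fgb and the complement gene C3. The RefSeq table (GRCm38.p6) had an entry for 29 of the 37 genes. Each sequence is those 120 bases on the gene's strand, with TTGCNNAA or its reverse complement in capitals.
F9, chrX:59999344-59999463, plus strand: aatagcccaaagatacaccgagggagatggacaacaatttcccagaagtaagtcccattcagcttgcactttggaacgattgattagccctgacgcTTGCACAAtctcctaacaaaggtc
F11, chr8:45262032-45262151, minus strand: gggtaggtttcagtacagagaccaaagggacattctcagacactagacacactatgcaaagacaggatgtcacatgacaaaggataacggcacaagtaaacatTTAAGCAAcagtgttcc
Fgb, chr3:83049864-83049983, minus strand: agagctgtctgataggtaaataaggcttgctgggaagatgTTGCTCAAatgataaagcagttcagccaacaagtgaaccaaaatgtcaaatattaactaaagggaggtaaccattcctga
C3, chr17:57228137-57228256, minus strand: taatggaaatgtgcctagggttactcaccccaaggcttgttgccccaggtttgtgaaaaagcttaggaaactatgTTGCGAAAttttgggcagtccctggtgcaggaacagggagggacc

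In the 250 bases before the start, TTGCNNAA was found on either strand in 7 of 29 members (24.1%), against 9.55% of 27025 genes. CAAAGTCC, a form of the HNF4 motif, was found in 0 (against 1.22%), and TATAAA in 2 (6.90%, against 12.97%). A match describes the letters only. The differences of the genes shown were -0.43 for F9, -1.19 for F11, -0.17 for Fgb and -0.15 for C3. The other members with a TTGCNNAA match were Fga, Klkb1 and C9. They differed by 1.83 (-0.87 with the other Fga probe), -0.71 and 0.31, so members with a match went both ways. The factor genes were looked up because of these motifs, after their values were seen. Cebpa had 4.32, 4.42 and 4.48 in Gα12 KO livers and 0.51, 1.40 and 4.48 in WT livers (difference 2.28, SE 0.92, limma adjusted p = 0.235), and Hnf4a differed by -0.12 (SE 0.39). For Cebpa, too, WT replicate 3 was close to the Gα12 KO livers.

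Other genes of the same pathways were read from lists, none of whose members passed limma's test (lowest adjusted p = 0.235). Among 22 measured further coagulation genes, 3 had an unadjusted p below 0.05 with lower levels (background 16.6%) and 0 with higher levels (background 3.98%), and the same background shares apply to the lists that follow. They were Tfpi, for the inhibitor of tissue factor (-1.55, SE 0.57), Serpina6, for a steroid carrier related to clotting inhibitors (-0.94, SE 0.35), and the transglutaminase gene Tgm2 (-0.98, SE 0.41). With the mean over probes Serpina6 (-0.21) and Tgm2 (-0.25) no longer passed that threshold. From WT replicate 3 alone the differences were -0.29 for Tfpi, -0.41 for Serpina6 and -0.18 for Tgm2. Among 4 measured further fibrinolysis genes 2 were lower, S100a10 (-1.88, SE 0.55) and Plgrkt (-1.38, SE 0.52), both for proteins that hold plasminogen at cell surfaces, and Anxa2, for the partner of S100a10, differed by -1.05 (SE 0.48). All 3 were higher on WT replicates 1 and 2 than in the Gα12 KO livers, and the groups did not overlap for S100a10 and Plgrkt (background 21.1% of genes). Against WT replicate 3 alone S100a10, Plgrkt and Anxa2 differed by -0.64, -0.24 and -0.01. Of 7 vitamin K cycle genes 0 passed in either direction, with the lowest p for Ggcx, for the carboxylase that matures clotting factors (0.87, SE 0.43), Cyp4f14 (-0.68, SE 0.34) and Calu (1.47, SE 0.88). From WT replicate 3 alone these differences were 0.05, -0.20 and -0.21.

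By the same threshold, 2 of 13 measured further complement components were lower (background 16.6%) and 1 was higher (background 3.98%). C1rl (-1.57, SE 0.57) and C1s2 (-0.997, SE 0.41) encode relatives of the proteases that start the classical pathway. C1qa, for a chain of its recognition molecule that macrophages make, was higher by 1.42 (SE 0.58). It had the highest difference of the 12 measured Kupffer cell markers, of which 8 were below 0 and 4 above. Their median was -0.17, against -0.49 over all genes. From WT replicate 3 alone C1rl, C1s2 and C1qa differed by -0.25, -0.23 and 0.32. Of 19 measured complement regulators and receptors 3 were lower (background 16.6%) and 0 higher, and 2 of the 3 are described. Cd59b, for an inhibitor of the membrane pore, was not well above background on any of the 3 Gα12 KO arrays. It was tested only because of its WT arrays, and that filter favoured its place among the lower genes. Its group means were -3.40 in Gα12 KO and -1.87 in WT livers. Set against the WT mean, the Gα12 KO level was at least 1.74-fold lower, a bound that leaves out the spread between WT livers. Cd55, for a membrane inhibitor of the convertases, differed by -1.49 (SE 0.52), or -0.43 against WT replicate 3. The groups did not overlap for Cd55 (background 21.1%).

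Among 25 regulators of liver secretory genes, 4 had lower (background 16.6%) and 4 had higher levels (background 3.98%) by that threshold, and the median difference was -0.02. Cebpb, for an inducer of acute phase genes, had 5.91, 6.03 and 5.88 in Gα12 KO livers, against 4.44, 5.32 and 5.21 in WT livers. The groups were separate, and the difference was 0.95 (SE 0.35), or 0.73 against WT replicate 3. Foxa3 differed by 2.28 (SE 0.87), or 0.08 against WT replicate 3. Onecut1, well above background in 2 Gα12 KO livers and 1 WT liver, had 0.63, 0.05 and -3.04 in Gα12 KO livers and -5.25, -5.61 and -1.79 in WT livers, so no size is given for it. In a list of 21 measured other hepatocyte products, most of them secreted, 1 was lower (background 16.6%) and 0 higher, with a median of -0.06 (-0.49 over all genes). That gene was Ttpa (-1.15, SE 0.41), whose vitamin E transfer protein stays in the cytosol of hepatocytes. The apolipoprotein genes Apoh (-0.82, SE 0.40) and Apob (-0.67, SE 0.34) came next. From WT replicate 3 alone Ttpa, Apoh and Apob differed by -0.41, -0.08 and -0.62.

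The tissue was checked against its markers, with signals summed over a list in units of the array's 75th percentile. The sum of 13 measured hepatocyte markers was 8833 to 11732 in Gα12 KO livers and 7246 to 12626 in WT livers, and that of the 37 genes 9849 to 11214 in Gα12 KO and 8840 to 19797 in WT livers. Taken gene by gene, 10 hepatocyte markers had differences above 0 and 3 below. Their median was 0.11, against -0.48 for the 37 genes and -0.49 over all genes. From WT replicate 3 alone it was 0.53, against 0.12 for the 37 genes. For other cell types the sums were 128 to 147 in Gα12 KO and 128 to 232 in WT livers for 12 of 14 Kupffer cell markers, and 123 to 149 in Gα12 KO and 137 to 203 in WT livers for 14 of 14 sinusoidal endothelial markers. They were 158 to 162 in Gα12 KO and 173 to 330 in WT livers for 13 of 14 stellate cell markers, and 10.1 to 11.8 in Gα12 KO and 11.7 to 17.9 in WT livers for 7 of 10 cholangiocyte markers. For 7 of 14 blood and platelet markers they were 270 to 313 in Gα12 KO and 295 to 530 in WT livers. The cholangiocyte genes Epcam, Krt7 and Cftr and the platelet genes Itga2b, Gp1ba, Gp9 and Ppbp were well above background on at most 1 array. The part of other cells in the differences was not tested.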

How the data were processed

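The scanner software was Agilent Feature Extraction 10.7.3.1, per the submitters' processing notes, and the annotation is of mouse build mm9, per the file headers. The deposited scanner files hold spot intensity on a linear scale, background-subtracted and floored by that software, and the raw spot and background medians. Log2 values in the deposited matrix equal log2 processed intensity plus 1 constant per array, within 0.01 for 99.69% to 99.94% of probes. For WT replicate 2 that constant is 0, and this column alone has missing values (397). How the constants were chosen is not given in the sources used here. Column medians were 4.32, 4.44 and 4.52 in Gα12 KO and 4.41, 4.17 and 4.70 in WT.

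From the processed intensity, log2 values minus the array's 75th percentile were averaged over the spots of a probe, without control spots and outlier marks. Accessions matched 26762 of 55681 probes to 20284 genes (RefSeq, GRCm38.p6, names only). Testing was limited to 23132 probes that were well above background on 3 or more of 6 arrays, counting a probe as such on an array where any of its spots was, outlier marks included. Of 3 definitions tried on these data, this one was kept because its probe count equals that of an earlier processing of them. The test was done with limma 3.58.1 in R 4.3.3, two-sided, with Benjamini-Hochberg adjustment over all of them and a threshold of 0.05. A gene was represented by its brightest tested probe. Gna12 was fitted with all probes. No non-control spot was saturated. Values were given in full for 21 genes by rule: up to 4 of lowest p per list and direction, and those whose groups did not overlap. C8b was given in full outside that rule. From each other list the 3 genes of lowest p were named, except 1 that is not reported here. A fold given as a lower bound sets the brighter group's mean against a floor in the dimmer group, which on each array is the dimmest signal still well above background, or the probe's own where that is brighter. The fit was tested on simulated data in which both groups had the spread of the Gα12 KO arrays. That test does not cover the wider spread of the WT arrays. The members and lists were chosen with earlier results of these data known. Labels describe 3 animals per group, 1 array each; their number limits the precision. Same-numbered samples share only a number. Promoter sequences are RefSeq's.

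Alternatives tried were normexp background correction with an offset of 50 on the raw medians, quantile and median scaling, the series matrix, no filter, a filter on all 6 arrays, a mean over probes, trend and robust estimation, a replicate block, and arrays left out.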

Additional observations from a re-analysis of the deposited data

How the results depend on the processing

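With all arrays, 0 of the 37 genes passed limma's test over all probes, and this held in every alternative except without WT replicate 3, where 27 passed. Leaving out 1 array in turn, the count of members lower at an unadjusted p below 0.05 (3 with all arrays) ran from 0 to 26, that of members higher (2) from 1 to 4, the clotting median (-0.43) from -0.71 to -0.25, the anticoagulant median (-0.51) from -0.72 to -0.35, the fibrinolysis median (-0.55) from -0.92 to -0.29 and the complement median (-0.46) from -0.75 to -0.19. The lower count was 0 without WT replicate 1, without WT replicate 2 and without Gα12 KO replicate 2, and 1 without Gα12 KO replicate 1. It was 5 in the series matrix, where F13b was not tested because it did not have a value on every array. It was 5 with the filter on all 6 arrays, 6 with the mean over probes and 9 after normexp. The higher count was 1 with the mean over probes and 1 after quantile normalization. The clotting median was -0.29 with median scaling, -0.00252 after quantile normalization and 0.058 without WT replicates 1 and 2, and the fibrinolysis median (-0.55) was then 0.24 and the complement median (-0.46) 0.096. Without WT replicates 1 and 2, 21 of the 37 signs changed. Among the 21 genes described in full by rule these were C9 (-0.39), Cfi (0.073), Cpb2 (0.25), F5 (0.058), F7 (-0.33), Plg (0.24), Pros1 (0.24) and Serpinf2 (0.20). C8b, given in full outside that rule, also changed sign (0.78). After quantile normalization 10 signs changed, all from negative to positive, among them Cpb2 (0.082), F9 (0.046) and Pros1 (0.17). With the mean over probes 4 signs changed, among them F5 (0.12). Among genes with lower levels whose groups did not overlap, quantile normalization gave -0.016 for Mbl1, -0.041 for Proz and -0.18 for Klkb1. It gave -0.38 for Serpind1, -0.56 for C4bp, -0.83 for F13b and -0.85 for Mbl2. Fgg and Serpinc1 changed sign with median scaling. Over all genes, an unadjusted p below 0.05 was reached by 2038 with lower and 490 with higher levels, but by 1447 and 636 with median scaling, and the median of all genes (-0.49) was -0.38 after normexp, -0.36 with median scaling and -0.21 after quantile normalization. Counting a probe as well above background from any or from most of its unmarked spots, alternatives chosen after seeing the data, kept 23101 or 23086 probes and left the member counts at 0, 3 and 2. The cause of these changes was not tested; the fit without WT replicates 1 and 2 assumes that the lone WT liver varies like the Gα12 KO livers. The difference of Gna12 ran from -3.44 to -0.32 and passed nowhere. With the replicate number as a block, 0 members passed, 2 lower and 2 higher ones had an unadjusted p under 0.05, and the medians stayed at -0.43, -0.51, -0.55 and -0.46. Deviations of same-numbered samples correlated at -0.13, 0.01 and -0.04, so the numbers were not taken to pair them.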
